A study of Macaca mulatta with 24 samples.

Results

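Voltage-gated sodium channel subunits were followed by gene symbol in RNA-Seq of the nucleus accumbens core (NAcc) of rhesus macaques that drank ethanol or did not. The members were the 8 gene rows whose symbol is SCN1A, SCN2A, SCN3A, SCN8A or SCN9A (alpha subunits) or SCN2B, SCN3B or SCN4B (beta subunits), out of 17208 gene rows in all. Each of the 24 adult male animals gave 1 library from 1 dissected tissue sample, so each p-value below measures the spread between animals. Expression is in TPM, transcript abundance scaled to a fixed total and corrected for transcript length, and differences were tested on log2(TPM + 1).

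All animals used operant drinking panels and passed through 4 months of schedule-induced polydipsia, in which food pellets arrive at fixed intervals and drinking is induced, followed by 12 months of open access for 22 h each day. The 16 drinking animals could choose between 4% (w/v) ethanol and water. The 8 controls had water from both spouts and were given a 10% maltose dextrin solution to match calories. The LD* arm held 8 animals labelled LD, a set that the study describes as low and binge drinkers together, whose mean daily intake ran from 0.47 to 2.07 g/kg with a median of 1.82 g/kg. The HD* arm held 8 animals from 2.74 to 3.78 g/kg, of which 4 were classed as heavy drinkers (HD, 2.74 to 3.09 g/kg) and 4 as very heavy drinkers (VHD, 3.09 to 3.78 g/kg). Drinking was voluntary, so animals were not assigned to a drinking category, and intake and whatever came with it cannot be told apart. Animals entered the study in 4 cohorts, which did not hold the same arms. HD* animals were split between cohort 5 (4, beside 3 controls) and cohort 7a (4, beside 2 controls and 3 LD*), with 3 controls and 3 LD* in cohort 7b and 2 LD* in cohort 4.

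A voltage-gated sodium channel is a large alpha subunit that forms the pore, opens on depolarisation and carries the rising phase of the action potential, joined by small beta subunits with a single membrane span that tune gating, placement and cell adhesion. Nav1.1, Nav1.2, Nav1.3 and Nav1.6, encoded by SCN1A, SCN2A, SCN3A and SCN8A, are the alpha subunits of central neurons, and Nav1.7, encoded by SCN9A, is best known from peripheral sensory neurons. Most neurons of the NAcc are GABAergic medium spiny neurons, and SCN4B is known for its high expression in the striatum.

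Libraries were set against marker genes of the cell types that the tissue could hold. Medium spiny neuron markers (10 genes, among them PPP1R1B, DRD1 and DRD2) were present in every library, but their summed level was 772 TPM in Control 6, of cohort 7b, against 2715 to 11916 TPM over the other 23 animals. Control 6 also had the highest oligodendrocyte marker sum, 9719 TPM. Markers of cortical and thalamic glutamatergic neurons summed to between 1.36 and 790 TPM, the highest in LD* 4, with 379 TPM in Control 2. They reached 229 TPM in LD* 2 and 211 TPM in HD 4. Leaving out Control 6, Control 2 or LD* 4 put no member past the threshold in any comparison between arms, and the values without Control 6, which moved the comparisons with controls more than the other 2 did, are given beside the results. In such bulk tissue, fewer cells of a type and less RNA per cell cannot be told apart.

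The beta subunits were the most abundant of the family. The mean over the 24 animals was 289 TPM for SCN4B (SD 187), which encodes the subunit associated with resurgent sodium current, 227 TPM for SCN2B (SD 72.3), whose product is linked to alpha subunits by a disulfide bond, and 82.4 TPM for SCN3B (SD 30.2), whose product associates without one. Among the alpha subunits, SCN2A, which is placed early on the axon initial segment, had the highest mean at 71.9 TPM (SD 31.6). SCN8A, the main channel of mature nodes and distal initial segments, followed at 30.2 TPM (SD 12.0), then SCN3A, best known from developing brain, at 19.0 TPM (SD 6.80). SCN1A, prominent in fast-spiking interneurons and a gene of Dravet syndrome, had a mean of 9.24 TPM (SD 3.58), and SCN9A was lowest at 0.710 TPM (SD 0.402).

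Neighbours in this order were not all separated. SCN4B exceeded SCN2B in only 15 of 24 animals, with a ratio from 0.373 to 2.47, so these genes did not differ in order beyond their spread. SCN3B exceeded SCN2A in 20 of 24 animals and SCN3A exceeded SCN1A in 23 of 24, the exception being Control 6. Each of the other neighbouring pairs kept its order in 24 of 24 animals.

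Among the alpha subunits listed, SCN2A made up 53.5% ± 5.54 (SD, n = 24) of the summed TPM, SCN8A 23.3%, SCN3A 14.9%, SCN1A 7.79% and SCN9A 0.634%. SCN1A reached 23.6% in Control 6, 15.8% in VHD 2 and 13.1% in Control 8, and the same animals had the lowest SCN2A shares, 34.7%, 45.8% and 43.4%. In all other animals SCN1A lay between 4.56% and 10.2% and SCN2A between 49.7% and 58.9%. In the 4 HD animals the SCN1A share lay between 5.55% and 5.91%. Among the beta subunits, SCN4B held 44.8%, SCN2B 40.6% and SCN3B 14.7% on average, and the share of SCN4B ranged from 21.7% in VHD 2 to 67.6% in VHD 4.

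**Figure D1:**
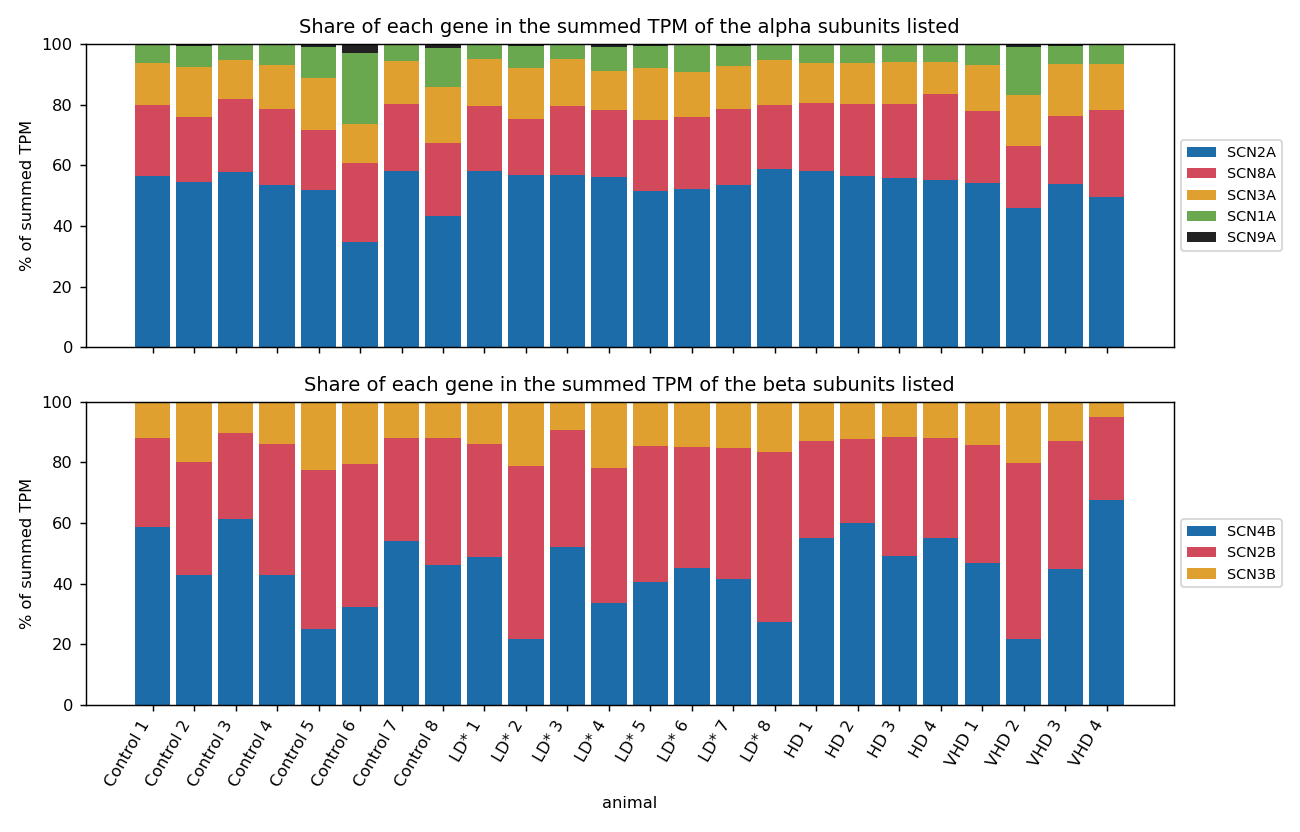
Stacked bars give each gene's percentage of the summed TPM of the 5 alpha subunits (top) and 3 beta subunits (bottom), one bar per animal. SCN2A is the largest alpha share in every animal, Control 6 stands apart with 23.6% SCN1A, and the SCN4B share varies from 21.7% to 67.6%.

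The subunits varied more between animals than most genes. Their coefficients of variation ran from 31.9% (SCN2B) to 64.9% (SCN4B), against a median of 23.6% over the 13637 genes that averaged 1 TPM or more. The highest animal exceeded the lowest by 2.72-fold for SCN2B and 10.5-fold for SCN4B. SCN4B was between 403 and 643 TPM in Control 1, Control 3, Control 7 and each of the 4 HD animals, and at 372 TPM or less in all others.

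The first question of the design was whether drinking animals differed from controls. SCN2A lay between 21.5 and 126 TPM in controls (median 66.5), between 28.8 and 103 TPM in LD* (median 82.7) and between 20.2 and 108 TPM in HD* (median 67.6). SCN4B lay between 86.0 and 642 TPM in controls (median 203), between 110 and 372 TPM in LD* (median 177) and between 61.5 and 643 TPM in HD* (median 373). The 3 arms overlapped for both genes, although no LD* animal reached the upper part of the SCN4B range, where controls and HD* animals lay.

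**Figure D2:**
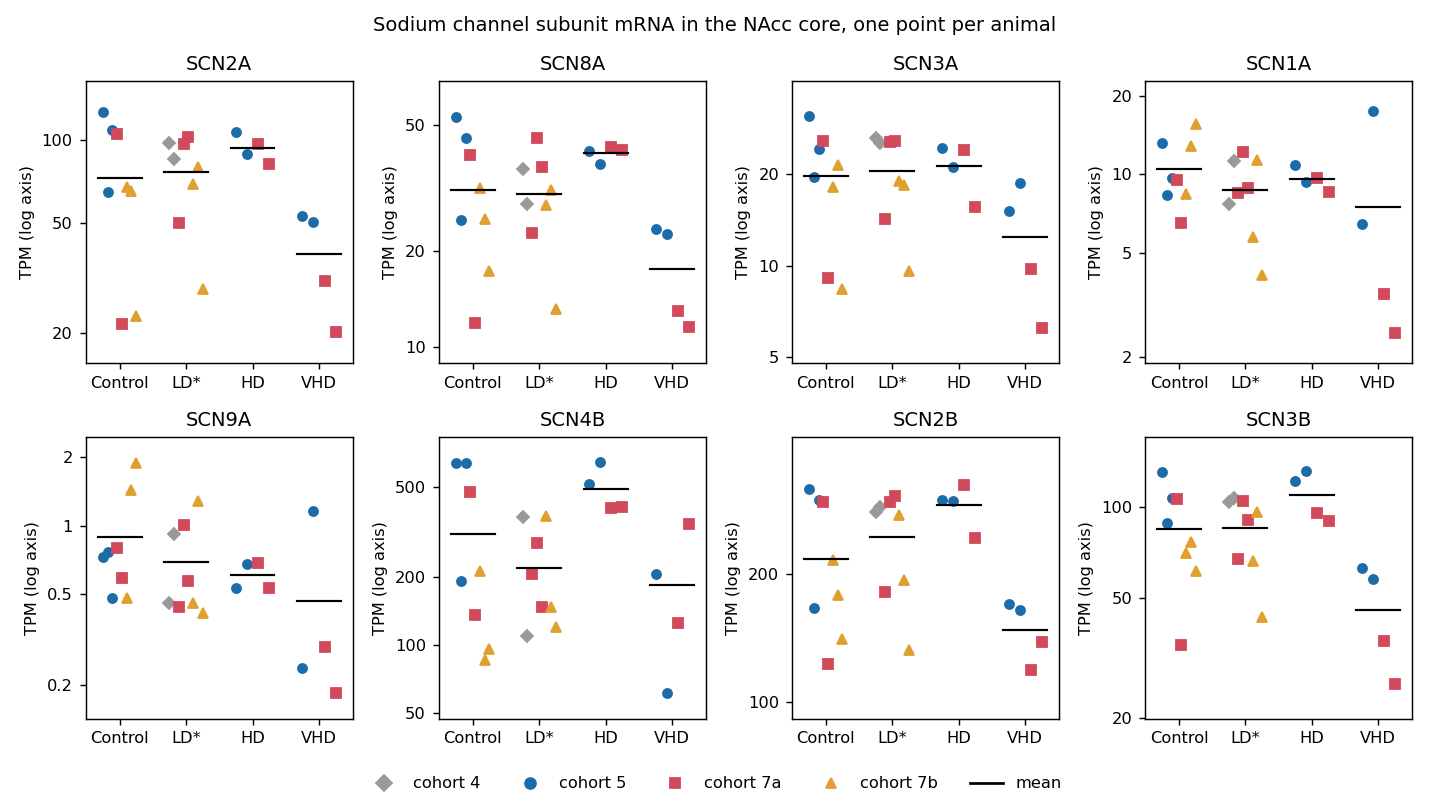
Each panel shows 1 subunit, with TPM on a log axis, a point per animal (colour and shape give the cohort) and a line at the group mean. Controls and LD* spread over wide overlapping ranges, while for SCN2A, SCN8A, SCN2B, SCN3B and SCN4B every VHD animal lies below every HD animal.

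None of the members passed the test for HD* against controls (limma, 13637 genes, Benjamini-Hochberg adjusted p), where the share of all genes called was 0% at adjusted p and 5.68% at an unadjusted p under 0.05. The log2 differences ran from -0.40 (SE 0.27, SCN1A, adjusted p = 0.706) to 0.22 (SE 0.47, SCN4B, adjusted p = 0.867), with a median of -0.10 over the 7 members tested and -0.12 over all genes. SCN9A fell below the minimum of 1 TPM and was tested in a fit of all 17208 genes, at -0.29 (SE 0.14), unadjusted p = 0.0571 and adjusted p = 0.718 in limma. TMM rescaling, which sets libraries level on a trimmed mean of log ratios, moved the median of all genes from -0.12 to -0.0067, and with it SCN2A went from -0.08 to 0.040 and SCN8A from -0.10 to 0.019. The 95% interval for SCN2A ran from -0.87 to 0.70. Without Control 6 the difference for SCN2A was -0.28 and that for SCN4B 0.033. The paper tested read counts rather than TPM and did call genes between HD* animals and controls. It lists SCN3B among the membrane genes with lower expression in these drinkers. On TPM, SCN3B was also lower in HD* but far from the threshold, at -0.21 (SE 0.30, adjusted p = 0.789, limma). The absence of calls here therefore holds for this test on TPM, and the reason for the difference was not tested.

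No member passed for LD* animals either. The share of all genes called was 0% at adjusted p (2.84% at an unadjusted p under 0.05), and no member had an unadjusted p under 0.05. The differences from controls ran from -0.26 (SCN1A, SE 0.27) to 0.21 (SCN2A, SE 0.38), with a median of 0.046 against -0.025 for all genes. Without Control 6 they ran from -0.43 (SCN4B, -0.25 with all animals) to 0.12 (SCN2B), and SCN2A was 0.0096. Without Control 8 SCN2A was -0.0032. For HD* against LD*, the share of all genes called was 0% at adjusted p and 1.08% unadjusted, and again no member passed either. SCN4B was the member with a higher mean in HD* (0.46, SE 0.47), and the other 6 tested had lower means, down to -0.31 (SE 0.28) for SCN3A. Of all 13637 genes, 9990 had lower means in HD* than in LD*.

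Cohorts were compared in a model with arm and cohort. For cohort, 0% of all genes were called at adjusted p and 8.36% unadjusted, and no member passed either threshold. SCN3A came nearest (F = 2.85, unadjusted p = 0.0606, adjusted p = 0.540 in limma). Its mean was 25.8 TPM in cohort 4 (n = 2), 22.0 TPM in cohort 5 (n = 7), 17.3 TPM in cohort 7a (n = 9) and 15.8 TPM in cohort 7b (n = 6). The HD* difference was also compared between cohorts 7a and 5, the cohorts that hold both HD* animals and controls. There 0% of all genes were called (2.16% unadjusted), and the members' estimates ran from -0.51 (SE 0.60, SCN1A) to 0.94 (SE 1.15, SCN4B). For SCN4B the HD* difference was -0.75 within cohort 5, 0.19 within cohort 7a and -0.35 over both, none past the threshold.

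Inside the HD* arm, VHD animals had less mRNA of 5 subunits than HD animals. SCN2A, SCN8A, SCN2B, SCN3B and SCN4B were lower in VHD at adjusted p, 5 of the 7 members tested, where the share called of all 13637 genes was 14.6% (11.4% for lower genes) and 32.7% at an unadjusted p under 0.05. For each of the 5, every VHD animal lay below every HD animal, which held for 17.9% of all genes. The median log2 difference was -1.23 over the 7 members and -0.17 over all genes. With 4 animals against 4, an exact permutation test of a single value cannot go below a two-sided p of 0.0286. The paper also called genes between HD and VHD animals, at a stricter threshold than here. More of them were higher in HD, with synapse and cation transporter annotations, and the paper asks for independent replication.

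SCN2A was 108, 88.9, 97.4 and 82.0 TPM in HD 1 to HD 4 and 53.2, 50.7, 30.7 and 20.2 TPM in VHD 1 to VHD 4. The gap between the groups was wider than the range within HD. The VHD mean was 41.2% of the HD mean, a log2 difference of -1.35 (SE 0.26, adjusted p = 0.00906, limma).

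SCN8A was 41.3, 37.7, 42.6 and 41.8 TPM in the 4 HD animals and 23.4, 22.6, 12.9 and 11.6 TPM in the 4 VHD animals. The HD animals were tightly grouped, and the pair of VHD animals from cohort 7a was lower than the pair from cohort 5. The log2 difference was -1.23 (SE 0.23, adjusted p = 0.00778, limma).

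SCN3A, the third most abundant alpha subunit, was 24.4, 21.0, 23.96 and 15.6 TPM in HD and 15.1, 18.7, 9.74 and 6.21 TPM in VHD. VHD 2 lay above HD 4, so the groups overlapped. Its difference of -0.81 (SE 0.29) missed the threshold (adjusted p = 0.0790, limma), with a 95% interval from -1.44 to -0.18.

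SCN1A and SCN9A were high in 1 VHD animal. SCN1A was 10.8, 9.31, 9.68 and 8.52 TPM in HD and 6.44, 17.5, 3.49 and 2.46 TPM in VHD, so that VHD 2 held the highest value of all 24 animals and the other 3 VHD animals lay below every HD animal. SCN9A was between 0.533 and 0.684 TPM in HD, 1.16 TPM in VHD 2 and between 0.186 and 0.296 TPM in the other 3 VHD animals. The differences were -0.63 (SE 0.42, adjusted p = 0.308) for SCN1A and -0.17 (SE 0.18, adjusted p = 0.581) for SCN9A in limma. Without VHD 2 they were -1.12 (adjusted p = 0.00746) and -0.37 (adjusted p = 0.0200), and SCN3A was -1.03 (adjusted p = 0.0125).

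Among the beta subunits, SCN2B was 300, 297, 324 and 243 TPM in HD and 170, 165, 119 and 139 TPM in VHD. This was the smallest and most precise of the 5 differences, at -0.97 (SE 0.15, adjusted p = 0.00480, limma). SCN3B was 122, 132, 95.3 and 89.7 TPM in HD and 63.0, 57.5, 36.0 and 25.8 TPM in VHD, a difference of -1.31 (SE 0.26, adjusted p = 0.00906). SCN4B was 514, 643, 403 and 409 TPM in HD and 206, 61.5, 126 and 343 TPM in VHD, and its difference of -1.65 was the largest and least precise (SE 0.40, adjusted p = 0.0209). VHD 4, lowest of all 24 animals for SCN3B and for each of the 5 alpha subunits, had the highest SCN4B of the VHD animals. SCN4B lost its call with TMM rescaling (adjusted p = 0.0781), with no filter on low values (adjusted p = 0.0760), and without HD 1 (0.0502), HD 2 (0.0653) or VHD 3 (0.0803). The other 4 stayed past the threshold without any one of the 8 animals.

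**Figure D3:**
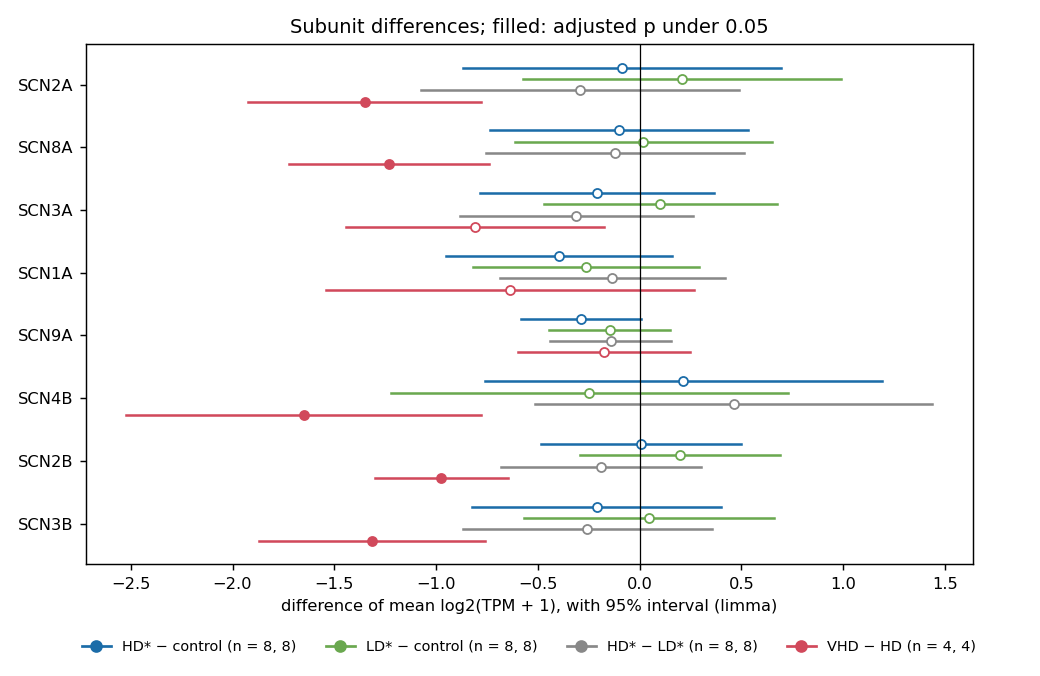
Points are differences of mean log2(TPM + 1) and lines their 95% intervals (limma) for each subunit in 4 comparisons, filled where the adjusted p is under 0.05. All intervals of the 3 comparisons between arms include 0, and the VHD minus HD points of SCN2A, SCN8A, SCN4B, SCN2B and SCN3B lie between -1.65 and -0.97.

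Within each cohort, the 5 genes were lower in VHD in both. SCN2A differed by -0.90 in cohort 5 and -1.80 in cohort 7a (2 animals against 2 in each), SCN8A by -0.75 and -1.71, SCN2B by -0.83 and -1.12, and SCN3B by -1.06 and -1.57. For SCN4B the order was the opposite, -2.34 in cohort 5 and -0.96 in cohort 7a. These cohort differences were not tested. With cohort as a covariate SCN3A also passed (-0.81, adjusted p = 0.0320, limma).

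Other cell markers moved with the VHD and HD groups. Neuron markers (8 genes) summed to between 4965 and 5517 TPM in HD and between 2577 and 4413 TPM in VHD, with 7 of 8 lower in mean. Medium spiny neuron markers summed to between 9239 and 10838 TPM in HD and between 3513 and 6252 TPM in VHD, with 10 of 10 lower in mean. Astrocyte markers were higher in VHD (3969 to 6673 TPM against 1836 to 3339 TPM), as were microglia markers (435 to 745 TPM against 333 to 426 TPM), with 0 of 7 genes of either list lower in mean. Oligodendrocyte marker sums overlapped (2398 to 5059 TPM in VHD, 2471 to 4218 TPM in HD). No gene of these 5 lists was at 0 in any library. Endothelial sums overlapped (55.2 to 105 TPM in VHD, 83.3 to 103 TPM in HD), although 4 of 4 genes were lower in mean. Interneuron sums also overlapped (650 to 1525 TPM in VHD, 1355 to 1715 TPM in HD), with 2 of 5 genes lower in mean. Neither of these levels was used as a covariate. Markers of cortical and thalamic glutamatergic neurons summed to between 1.36 and 211 TPM in HD and between 2.28 and 21.1 TPM in VHD. The highest HD sums were those of HD 4 (211 TPM) and HD 2 (95.1 TPM). The part of such RNA in the VHD and HD differences was not tested.

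Terms for these marker levels, added to the model after the data had been seen, changed the calls. With the neuron level as a covariate none of the members passed, and the estimates were -0.50 for SCN2A (adjusted p = 0.341), -0.48 for SCN8A (0.214), -0.70 for SCN2B (0.102), -0.57 for SCN3B (0.319) and -2.91 for SCN4B (0.0527). With the medium spiny neuron level none passed either, SCN2A standing at -1.33 (0.433) and SCN4B turning to 0.62 (0.649). With the microglia level none passed, SCN2A standing at -1.47 (0.196). With the astrocyte level SCN2A, SCN8A, SCN2B and SCN3B passed, as did SCN1A (-1.39, adjusted p = 0.00881) and SCN3A (-1.24, 0.00706), while SCN4B did not (-1.07, 0.0553). With the oligodendrocyte level, all of the 5 remained past the threshold (adjusted p from 0.00335 for SCN2B to 0.00996 for SCN2A). The neuron and medium spiny neuron levels in these models did not overlap between the groups. The astrocyte level overlapped (-0.318 in VHD 4, 0.019 in HD 1), as did the microglia level (-0.102 in VHD 1, -0.080 in HD 2), although their summed TPM did not. Cell make-up and the drinking category cannot be told apart in 8 animals.

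Fitting all 24 animals in 4 groups, with 1 spread for all, left the 5 differences at the same size but past the threshold for none (adjusted p from 0.0555 to 0.0711). The SD of SCN2A was 38.8 TPM in controls and 26.0 TPM in LD*, against 11.0 TPM in HD and 15.9 TPM in VHD. These SDs are in TPM, not on the log2(TPM + 1) scale of the fit. Why the calls were lost was not tested. Among the TMM scaling factors, those of VHD 4 (0.689) and VHD 3 (0.838) were the lowest of the 24 libraries, the others lying between 0.860 and 1.13, and VHD 4 and VHD 3 were also the lowest of the 8 HD* animals for SCN2A, SCN8A and SCN3B. A factor below 1 means that most genes of a library lie low within its fixed total, relative to the other libraries. Rescaling moved the median of all genes for VHD against HD from -0.17 to 0.0058, changed the called genes from 441 higher and 1556 lower to 1170 higher and 1411 lower, and left SCN2A at -1.15, SCN8A at -1.04, SCN2B at -0.77 and SCN3B at -1.11.

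Each category was also set against the controls, in the fit of 4 groups, a comparison added after the data had been seen. In HD against controls 0% of all genes were called (7.77% unadjusted), no member passed either threshold, and the members' median was 0.49, with SCN4B highest at 1.04 (SE 0.51, adjusted p = 0.582). In VHD against controls 0% of all genes were called (26.1% unadjusted), and 3 of 7 members had an unadjusted p under 0.05, namely SCN3B (-0.87, SE 0.29, adjusted p = 0.155), SCN8A (-0.72, SE 0.31, adjusted p = 0.168) and SCN1A (-0.71, SE 0.32, adjusted p = 0.169). Both comparisons share the same 8 controls. The controls reached down to 21.5 TPM for SCN2A in Control 8 and up to 126 TPM in Control 1, a range that held every HD animal and all VHD animals but VHD 4.

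Intake itself was tested as a slope within the arms of the 16 drinkers. The share of all genes called was 0% at adjusted p (8.12% unadjusted). All 7 members tested had negative slopes, from -0.37 to -0.74 log2 units per g/kg, with a median of -0.60 against -0.11 over all genes. Of all 13637 genes, 9207 had negative slopes. SCN2B had the smallest p (-0.61 per g/kg, SE 0.24, unadjusted p = 0.0224, adjusted p = 0.498, limma), and SCN2A had the steepest slope (-0.74, SE 0.37, adjusted p = 0.498). Single animals moved these slopes, and without LD* 2, which had the lowest intake (0.47 g/kg), that of SCN2A was -1.30 and that of SCN4B -1.66, from -0.39. Leaving out 1 animal at a time, the slope ran from -1.30 to -0.52 for SCN2A, from -1.66 to -0.25 for SCN4B and from -1.05 to -0.30 for SCN8A, none past the threshold. Categories and intake were not the same thing at their border, since HD 2 (cohort 5) and VHD 3 (cohort 7a) both drank 3.09 g/kg. They had 88.9 and 30.7 TPM of SCN2A, and with 1 animal of each, category and cohort cannot be told apart.

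Other sodium channel genes and partners were read from a list of 31 genes, of which 30 had a row and 27 averaged 1 TPM or more. In VHD against HD, 10 of 27 were lower at adjusted p and 0 higher (background 11.4% for lower genes), with a median of -0.60. Among the largest differences were those of PRRT2, a presynaptic protein that modulates Nav channels (-1.09, SE 0.16, adjusted p = 0.00418) and NEDD4L, a ubiquitin ligase of sodium channels (-1.05, SE 0.19, adjusted p = 0.00713). NALCN, the sodium leak channel, stood at -1.05 (SE 0.25, adjusted p = 0.0204) and ANK3, the ankyrin that anchors Nav channels at the initial segment, at -0.79 (SE 0.24, adjusted p = 0.0491).

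In the comparisons between arms, 0 of 27 partners passed at adjusted p or at an unadjusted p under 0.05. For HD* against controls the differences of largest size included SCN7A, an atypical sodium-sensing channel gene (-0.42, SE 0.24), and UNC80, part of the NALCN complex (-0.35, SE 0.18). For LD* against controls they included SCN7A (-0.45, SE 0.24) and FGF11, a fibroblast growth factor homologous factor (-0.38, SE 0.28). For HD* against LD* they included NALCN (-0.37, SE 0.29) and FAM155A, a NALCN partner (-0.34, SE 0.22). Along intake, 4 of 27 had an unadjusted p under 0.05, where the share of all genes was 8.12%, and 0 of 27 passed at adjusted p. Among the 4 was NALCN (-0.70 per g/kg, SE 0.30, unadjusted p = 0.0331, adjusted p = 0.498, limma).

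Subunit levels were correlated across animals. Of the 28 pairs, 26 had a positive Pearson r over the 24 animals, and 19 had a Benjamini-Hochberg adjusted permutation p under 0.05. SCN2A, SCN3A, SCN8A, SCN2B and SCN3B, a set named after their values were seen, gave 10 pairs with r from 0.86 to 0.96. SCN2A and SCN8A had r = 0.96 (rho = 0.93, permutation p = 1e-05, the smallest that 100000 resamples can give), with 0.99, 0.98 and 0.91 within cohorts 5, 7a and 7b, and 0.94 without Control 8 and VHD 4. Subunits of 1 library share its depth and its cell make-up, whose part in these relations was not tested beyond the marker levels given further on.

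SCN1A and SCN9A were correlated with each other. Their r was 0.80 (rho = 0.86, adjusted permutation p = 2.55e-05), and 0.82, 0.90 and 0.92 within cohorts 5, 7a and 7b. SCN1A correlated with SCN2A at r = 0.51, which fell to 0.23 without VHD 3 and VHD 4, so that relation rested on those animals. The r within cohorts was 0.12, 0.84 and 0.011. SCN4B had an r of 0.54 with SCN2A (adjusted permutation p = 0.0115) and of -0.10 with SCN1A (adjusted permutation p = 0.682).

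**Figure D4:**
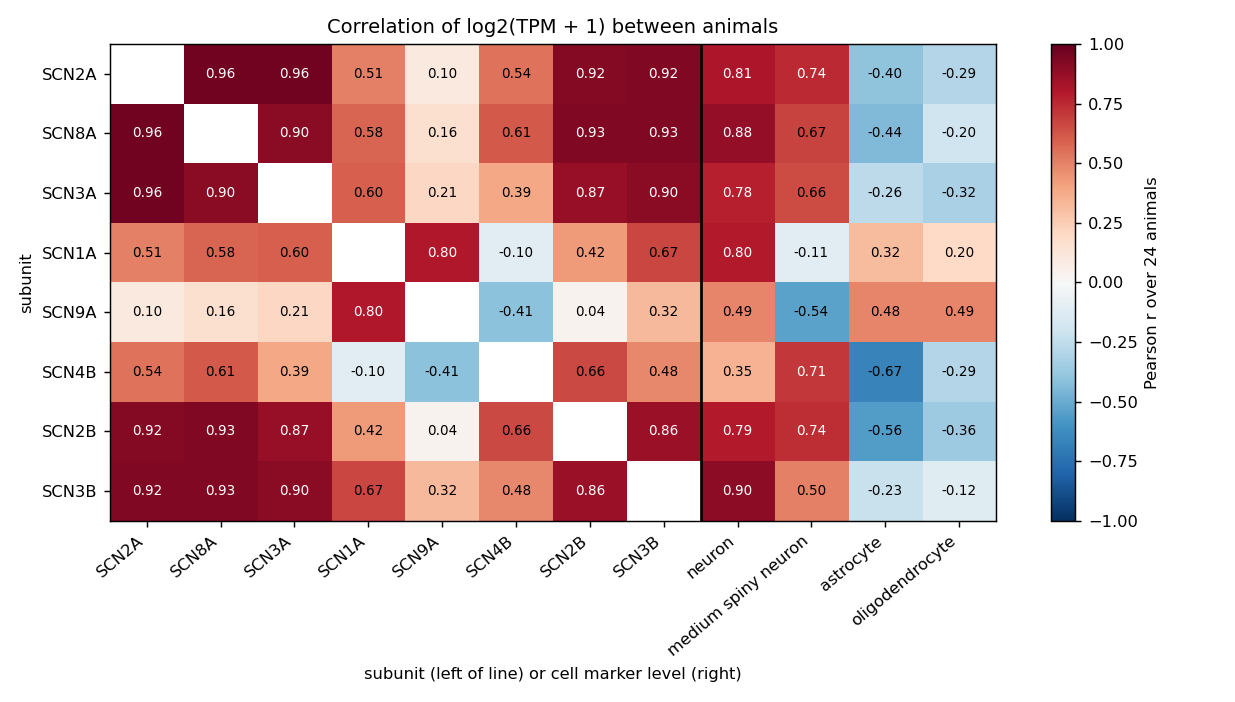
The colour and number in each cell give Pearson r of log2(TPM + 1) over the 24 animals between the subunit in the row and the subunit or cell marker level in the column. A block of high values (0.86 to 0.96) joins SCN2A, SCN8A, SCN3A, SCN2B and SCN3B, while SCN9A and SCN1A pair with each other at 0.80.

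The subunits were also set against 4 cell marker levels. With the neuron level, r ran from 0.35 (SCN4B) to 0.90 (SCN3B), and 7 of 8 relations had an adjusted permutation p under 0.05, of 32 marker relations computed. With the medium spiny neuron level, r was 0.71 for SCN4B (rho = 0.84, adjusted permutation p = 0.000183; 0.82 without Control 6 and Control 8; 0.97, 0.60 and 0.66 within cohorts 5, 7a and 7b) and 0.74 for SCN2A. It was -0.11 for SCN1A and -0.54 for SCN9A, the latter falling to -0.27 without Control 6 and Control 8. With the astrocyte level SCN4B had r = -0.67 (adjusted permutation p = 0.00122), and it was -0.94, -0.44 and -0.72 within cohorts 5, 7a and 7b. With oligodendrocytes r lay between -0.36 and 0.49. These relations depended on scaling. With TMM rescaling the oligodendrocyte level had r of -0.61 with SCN3A (adjusted permutation p = 0.00306), -0.55 with SCN2B and -0.52 with SCN2A, and the astrocyte level had r of -0.83 with SCN2B, -0.81 with SCN8A and -0.76 with SCN2A, against -0.56, -0.44 and -0.40 without it.

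**Figure D5:**
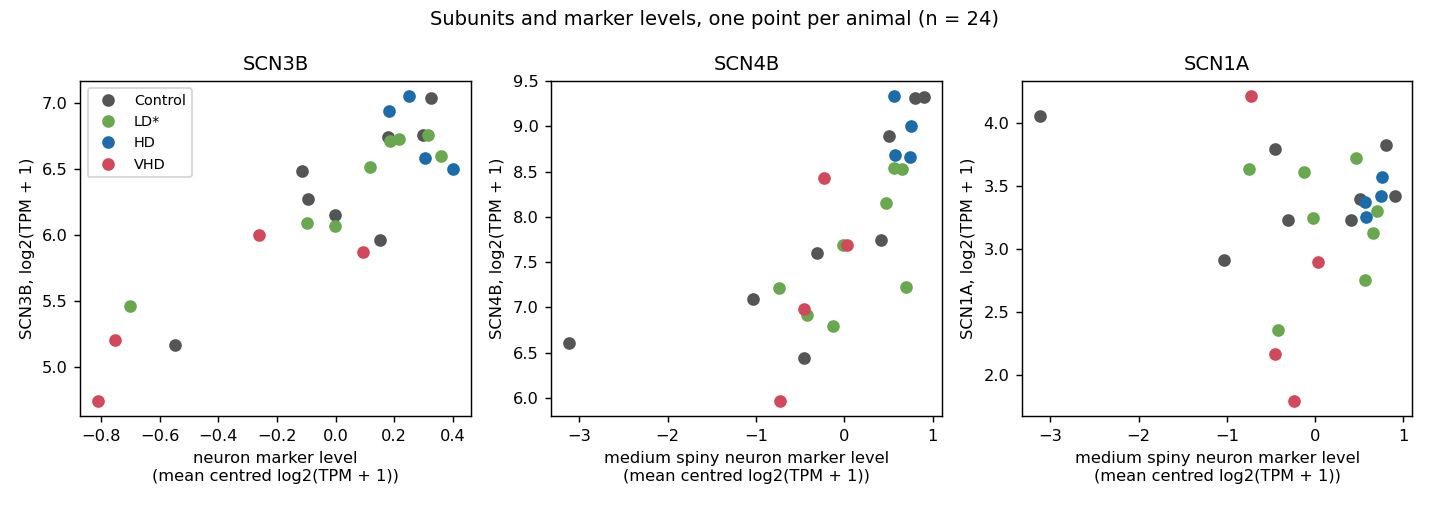
Each point is an animal, with the marker level (mean centred log2(TPM + 1) of a marker list) on the horizontal axis and a subunit's log2(TPM + 1) on the vertical axis. SCN3B rises with the neuron level (r = 0.90) and SCN4B with the medium spiny neuron level (r = 0.71), SCN1A does not follow the latter (r = -0.11), and the far-left point in the 2 right panels is Control 6.

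Genes with the most similar profile were sought among 9191 genes averaging 10 TPM or more, members excluded, by Pearson r over the 24 animals. They included FBXO34, FAM49A and SGIP1 for SCN2A (r = 0.98 each), TNKS2, NUPL1 and PPAT for SCN3A (0.98 each), CLCN4, ROCK2 and SUN1 for SCN8A (0.97 each), and LRRN2, CHRNB2 and DPP6 for SCN2B (0.98, 0.97 and 0.97). For SCN3B they included WDR47 and KIFAP3 (0.96 each), for SCN1A SMAP1, PSMD12 and BRAP (0.94, 0.93 and 0.93), for SCN9A ELAVL2 and NUB1 (0.90 each), and for SCN4B TLE1, RPUSD1 and MXRA7 (0.91, 0.91 and 0.89). High likeness was common, since 2099 genes had r over 0.8 with SCN2A, against 71 with SCN4B.

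SCN1A, SCN2A, SCN3A and SCN9A neighbour each other on 1 chromosome, and SCN2B and SCN4B are neighbours on another, in the RefSeq annotation of T2T-MMU8v2.0, an assembly other than that of the files. Only reads that align to 1 place were counted by the authors, so reads from stretches shared by these paralogs may be missing from their levels, and the levels of such genes are uncertain to that extent.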

How the data were processed

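PolyA-selected libraries were aligned by the authors to the MacaM assembly with STAR 2.5.2b, keeping uniquely mapped reads, and counted with HTSeq 0.6.1p1. The deposited values are TPM made by the authors (columns sum to between 999998 and 1000000), although described as normalized counts. The gene lengths behind them are not given in the sources used here, library strand is described in conflicting ways, and the depth of each library is not given there, so no counting error is given.

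From these TPM, log2(TPM + 1) was tested with limma 3.58.1 (R 4.3.3, empirical Bayes with a variance trend, robust off) over 13637 genes averaging 1 TPM or more, at a Benjamini-Hochberg adjusted p of 0.05. The written plan for this setting could be read with or without the trend, and both were run. The 3 contrasts between arms shared 1 model of 24 animals, and VHD against HD used the 8 HD* animals. Correlations used 100000 permutations (Python 3.11.15, scipy 1.17.1). A marker level is the mean of centred log2(TPM + 1) over a list. Named genes were all members, the 3 partners of largest difference in each comparison with ANK3 and NALCN, the 3 genes most like each member, and markers. A few genes that these rules name are not reported here. Members and lists were chosen with earlier results of these data known. The models were tested on simulated data. Alternatives were another pseudocount (0.1), other filters (none, 10 TPM), TMM rescaling, cohort and marker covariates, other sets of animals, and leaving out each animal. No sequences are shown.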

Additional observations from a re-analysis of the deposited data

Results flagged for a closer look

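SCN9A in VHD 2 was 1.16 TPM, far above the other 3 VHD animals at 0.186 to 0.296 TPM. It was picked out because its gap to the nearest of the others was 0.887 of the whole range, above Dixon's 95% critical value for 4 samples. Chance alone picks out about 1 in 20 groups, and this was 1 of 40 groups of values examined. SCN1A was also highest in the same animal, at 17.5 TPM.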

How the results depend on the processing

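TPM without counts limits precision to the spread between animals, and 4 animals against 4 leave wide intervals. HD* against controls, LD* against controls, HD* against LD*, the cohort interaction and the cohort test stayed at 0 genes called under every alternative run. None of these alternatives used read counts, on which the paper called genes for HD* against controls and against LD*. VHD against HD had 1997 genes called, and 0 with all 24 animals in 4 groups, 58 with the neuron level, 5397 with the astrocyte level, 0 with the microglia level and 0 with the medium spiny neuron level as a covariate. Leaving out 1 animal gave from 476 (without VHD 3) to 4651 (without VHD 2) genes, with 1094 without HD 1, 681 without HD 2, 607 without HD 3 and 723 without HD 4. The intake slope gave 0 to 1 genes when 1 animal was left out, the 1 being without LD* 2. Without the variance trend VHD against HD had 1616 genes, and the same 5 members passed (adjusted p from 0.0141 for SCN2B to 0.0356 for SCN4B). The marker-level covariates other than oligodendrocyte, the fits of single cohorts and those without the trend were added after seeing the data. The causes of these changes were not tested.

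These signs turned, none of them past the threshold. For HD* against controls SCN1A was 0.023 in cohort 5 alone. SCN2A was 0.040 and SCN8A 0.019 with TMM rescaling, and SCN8A was 0.057 in cohort 7a alone. SCN2B was -0.081 with the oligodendrocyte level, -0.13 with cohort as a covariate, -0.13 in cohorts 5 and 7a, -0.17 in cohort 5 and -0.0097 in cohort 7a. SCN4B was -0.12 with cohort as a covariate, -0.35 in cohorts 5 and 7a and -0.75 in cohort 5. For LD* against controls, the oligodendrocyte level gave -0.051 for SCN3A, -0.089 for SCN8A and -0.018 for SCN3B. For HD* against LD*, SCN4B was -0.094 with cohort as a covariate. For VHD against HD the neuron level gave 0.99 for SCN1A, 0.074 for SCN3A and 0.35 for SCN9A, and the medium spiny neuron level 0.62 for SCN4B. For intake the neuron level gave 0.23 for SCN1A, 0.13 for SCN8A and 0.047 for SCN9A. When 1 animal was left out, HD* against controls ran from -0.30 to 0.13 for SCN2A, -0.27 to 0.058 for SCN8A and -0.098 to 0.12 for SCN2B. LD* against controls ran from -0.0032 to 0.39 for SCN2A, -0.045 to 0.24 for SCN3A, -0.15 to 0.17 for SCN8A and -0.12 to 0.18 for SCN3B. HD* against LD* ran from -0.29 to 0.051 for SCN1A and -0.27 to 0.040 for SCN8A.

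Among 60 correlations, TMM rescaling brought 9 past the threshold, took 6 below it and turned the sign of 6. It turned SCN9A with SCN2A to -0.14, with SCN3A to -0.051, with SCN8A to -0.081 and with SCN2B to -0.27, and SCN1A with the oligodendrocyte level to -0.0056 and with the astrocyte level to -0.023. Without the 2 animals farthest from the median, SCN2A with SCN9A was -0.10, SCN1A with the medium spiny neuron level 0.15, and the oligodendrocyte level gave 0.045 with SCN2A, 0.054 with SCN8A and 0.042 with SCN3B. No paired analysis was possible because the groups hold different, unrelated animals.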
